A study of Homo sapiens with 10 samples.

Results

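The alpha-arrestins TXNIP, ARRDC1, ARRDC2, ARRDC3 and ARRDC4 were followed across the 10 RNA libraries of the study. They were chosen by symbol as members of 1 gene family, with earlier results of these data known. They are 5 of the 20327 genes in the deposited tables. Alpha-arrestins are adaptor proteins with the arrestin fold whose tails carry short proline-rich motifs, and these motifs recruit ubiquitin ligases of the NEDD4 family to membrane cargo. TXNIP, the best known of them, binds reduced thioredoxin and promotes the uptake of glucose transporters from the cell surface into the cell. Transcription of TXNIP and ARRDC4 is driven by the glucose-sensing factors MondoA (gene MLXIP) and ChREBP (gene MLXIPL) with their partner MLX, which bind E-box-like sequences in both promoters.

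RNA was sequenced from wild-type hTERT RPE-1 cells, a human line from retinal pigment epithelium immortalised with telomerase, after 48 h in medium with 0.1% serum. In the 30 min experiment, 3 libraries from cells given merbarone at 200 µM for 30 min were set against 3 from cells given the solvent DMSO for 30 min. In the 2 h experiment, 2 libraries from cells given merbarone at 200 µM for 2 h were set against 2 from untreated cells, which had received no solvent. Merbarone inhibits the catalytic cycle of topoisomerase II, and the comparisons ask how transcript levels changed after its addition. All libraries came from 1 cell line, and starvation was common to treated and control cells.

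Levels are the deposited RPKM values, reads scaled to gene length and to the reads of the library, which for most genes in these tables were computed over the whole gene including introns. Reads in genes, recovered from the RPKM values, numbered 26633780 to 38225538 per library in the 30 min experiment. In the 2 h experiment they numbered 11956652 to 13691014 per library. RPE65, a defining gene of pigment epithelium, did not exceed 0.0656 RPKM in any library, and 3 of 9 pigment epithelium markers (BEST1, PMEL and OTX2) reached 1 RPKM. A marker under 1 RPKM was not always low in reads. MITF, at 0.218 to 0.415 RPKM, had up to 2105 reads in a library, and OTX2 had up to 1476. The summed level of those 9 markers was 8.83 to 11.5 RPKM in the 30 min experiment and 25.1 to 29.0 RPKM in the 2 h experiment. That difference lay mainly in BEST1, which averaged 2.53 RPKM in the 30 min experiment and 18.6 RPKM in the 2 h experiment. Overlap of BEST1 with other genes was not examined, so part of its reads may belong to another gene. PMEL averaged 4.10 and 4.72 RPKM, and OTX2 3.25 and 3.93 RPKM. The epithelial keratins KRT8 and KRT18 summed to 16.0 to 24.5 RPKM and 62.0 to 76.0 RPKM. All 4 of 4 mesenchymal markers reached 1 RPKM, with VIM at 560 RPKM or more. Of the immune markers, PTPRC stayed at or below 0.00758 RPKM and CD68, also a lysosomal gene, was at 17.4 to 31.0 RPKM. The experiments therefore differed in these markers as well as in time and control, and the part of these differences in the alpha-arrestin levels was not tested.

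The promoters of TXNIP and ARRDC4 are shown because both genes are regulated through E-box-like sequences and because their levels moved together across the libraries, as described further on. ARRDC3 moved with TXNIP as well, and a link between the motifs below and these levels was not tested. Each sequence is the 250 bases before a RefSeq transcription start, the first listed where a gene has more than 1, on GRCh38.p14, read 5′ to 3′ on the strand of the gene. The TXNIP window is chr1:145996580-145996829 on the minus strand and the ARRDC4 window is chr15:97960453-97960702 on the plus strand. Capitals mark CACGNG, the form of E-box searched, and CCAAT, each on either strand, and overlapping matches were all counted.
TXNIP: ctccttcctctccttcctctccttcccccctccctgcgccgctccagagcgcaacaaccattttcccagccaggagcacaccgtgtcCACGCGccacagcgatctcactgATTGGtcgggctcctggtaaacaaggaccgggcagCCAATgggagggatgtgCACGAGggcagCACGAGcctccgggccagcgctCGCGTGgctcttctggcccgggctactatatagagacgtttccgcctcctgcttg
ARRDC4: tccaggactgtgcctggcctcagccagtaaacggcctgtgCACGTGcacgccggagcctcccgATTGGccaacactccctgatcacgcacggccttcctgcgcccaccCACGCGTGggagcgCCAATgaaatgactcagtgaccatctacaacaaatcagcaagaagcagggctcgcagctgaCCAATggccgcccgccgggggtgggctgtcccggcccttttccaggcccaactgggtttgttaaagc
The TXNIP window held 4 matches to CACGNG, with their first bases 163, 88, 77 and 55 bases before the start, and 2 matches to CCAAT at 140 and 105. The matches at 88 and 77 form the spaced pair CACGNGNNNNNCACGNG, the layout of a carbohydrate response element, which 16 of 35116 promoter windows held (0.0456%). The ARRDC4 window held 3 matches to CACGNG, at 210, 142 and 140, and 3 to CCAAT, at 187, 128 and 67. The match at 210 is the palindrome CACGTG, present in 6.34% of windows, and no spaced pair in this exact form lay in the ARRDC4 window. Over all windows, 26.7% held CACGNG, 32.0% held CCAAT and 7.75% held both. Among the other windows of the family, the first ARRDC2 window held 3 matches to CACGNG and no CCAAT, and the ARRDC1 window held 1 CCAAT and no CACGNG. The first ARRDC3 window likewise held 1 CCAAT and no CACGNG. TXNIP, ARRDC2 and ARRDC3 each have a second window: that of TXNIP held 0 matches to either motif, that of ARRDC2 held 1 CCAAT and that of ARRDC3 held 1 CACGNG. These matches describe letters in a window, and no binding was measured.

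Per kilobase of exon, TXNIP was the most abundant member, with a mean of 66.0 RPKM, recomputed from the recovered reads with exon length in place of gene length, over the 10 libraries and a range of 26.8 to 107. ARRDC3 followed at 13.1 (9.29 to 17.9) and ARRDC1 at 8.37 (6.26 to 10.6) on the same scale. ARRDC2 was at 2.399 (1.72 to 3.64) and ARRDC4 at 2.05 (1.05 to 3.23). The range of TXNIP lay above that of every other member, and ARRDC1 lay above ARRDC2 throughout. The neighbours ARRDC3 and ARRDC1 overlapped in range, as did ARRDC2 and ARRDC4. The order was the same in the deposited RPKM, with means of 56.9 for TXNIP, 4.45 for ARRDC3, 3.27 for ARRDC1, 0.857 for ARRDC2 and 0.153 for ARRDC4. For ARRDC4 the length behind the deposited value was 54285 bp against an annotated span of 13131 bp, so its RPKM is lowered by region outside the annotated gene. Reads from that region are also in its exon-length value, which they may raise, and the order of ARRDC4 and ARRDC2 is therefore uncertain. A sixth family gene, ARRDC5, had between 0 and 2 reads in any library and is not described further.

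**Figure D1:**
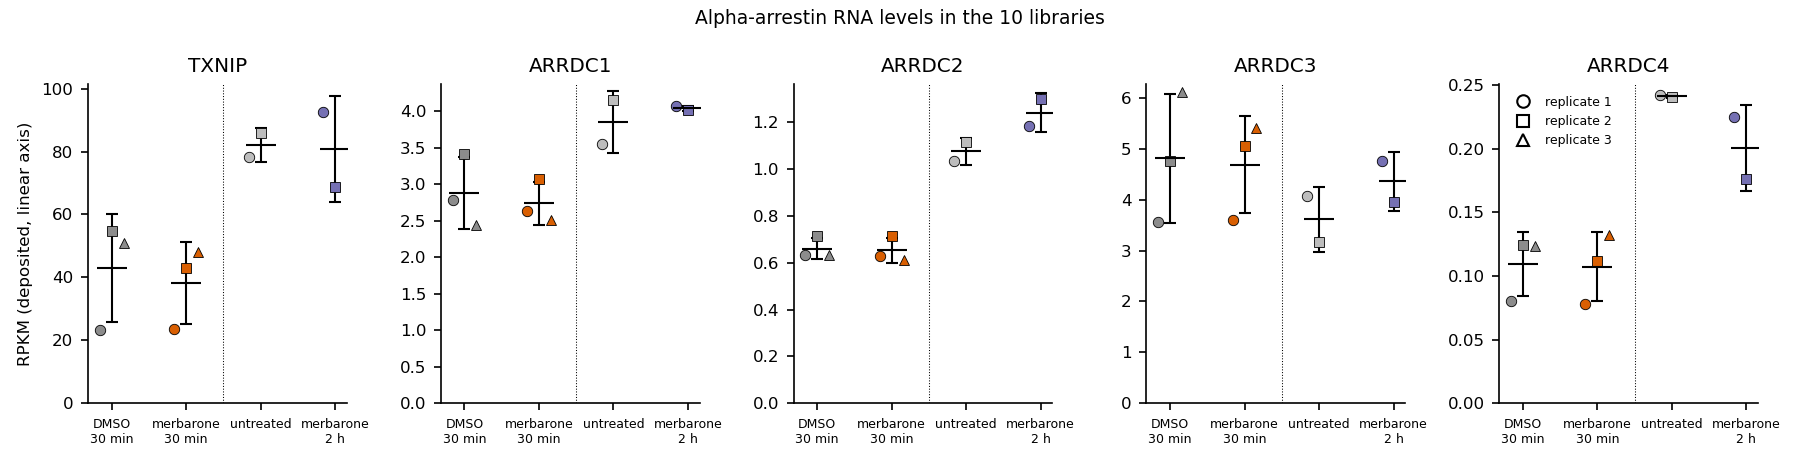
Deposited RPKM (linear axes from 0) of each alpha-arrestin in every library, with 1 panel per gene; circles, squares and triangles are replicates 1, 2 and 3, horizontal bars are group means and whiskers are 1 SD (n = 3 or 2 libraries). In TXNIP the 2 replicate 1 libraries of the 30 min experiment sit near 23 RPKM, and in every panel but that of ARRDC3 the 2 h experiment on the right lies above the 30 min experiment on the left.

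TXNIP (GRCh37 chromosome 1, 145438490 to 145442635, plus strand) was read from the row with its former Ensembl identifier, ENSG00000117289. No name table paired this identifier with a symbol, so the match rests on background knowledge of the identifier and on its length, 4167 bp in the tables against an annotated span of 4146 bp. Length alone does not single out the row, since 4 rows without a symbol lay within 1% of that span, and every TXNIP value here depends on this match. In the DMSO libraries TXNIP was at 23.1, 54.8 and 50.9 RPKM in replicates 1, 2 and 3. After 30 min of merbarone it was at 23.5, 43.1 and 48.2 RPKM. The groups overlapped throughout, and replicate 1 was low in both. The means were 43.0 ± 17.3 RPKM in DMSO and 38.3 ± 13.0 RPKM in merbarone (SD, n = 3), a ratio of 0.891, with 1 of 3 same-numbered pairs higher after merbarone. On the log2(RPKM + 1) scale the difference was -0.13 ± 0.40 (SE, 95% interval -1.09 to 0.83), with an adjusted p of 1.00 by limma with Benjamini-Hochberg adjustment. With the replicate number as a block the same difference had an interval of -0.31 to 0.05 and an adjusted p of 1.00. In bulk RNA, fewer cells expressing a gene and less RNA per cell cannot be told apart, here or for any other member.

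At 2 h TXNIP was at 78.1 and 85.9 RPKM in the untreated libraries. Merbarone libraries had 92.6 and 68.8 RPKM, 1 above and 1 below both controls. The means were 82.0 ± 5.48 and 80.7 ± 16.9 RPKM (SD, n = 2), a ratio of 0.984. The log2 difference was -0.04 ± 0.15 (SE, 95% interval -0.38 to 0.30), with an adjusted p of 0.890 by limma. This interval is narrower than the one at 30 min without the block.

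ARRDC4, the other member under MondoA control, lies on GRCh37 chromosome 15 from 98503933 to 98517063 on the plus strand and was counted with 116 to 256 reads per library. DMSO libraries had 0.0802, 0.124 and 0.123 RPKM, and the 30 min merbarone libraries had 0.0782, 0.112 and 0.132 RPKM. Replicate 1 was again the lowest of each group and the groups overlapped, with means of 0.109 ± 0.0252 and 0.107 ± 0.0271 RPKM (SD, n = 3). Untreated libraries had 0.242 and 0.240 RPKM and the 2 h merbarone libraries 0.225 and 0.177 RPKM. Here both treated libraries lay below both controls, with means of 0.201 ± 0.0340 and 0.241 ± 0.00115 RPKM (SD, n = 2) and a ratio of 0.832. ARRDC4 lay below the filter of a mean of 1 RPKM in both experiments and had no test on RPKM. In limma voom on the recovered reads its log2 difference at 2 h was -0.27 (95% interval -0.64 to 0.10, adjusted p = 0.325), and at 30 min it was -0.05 (-0.64 to 0.55).

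ARRDC3, an adaptor for membrane receptors and integrins, lies on GRCh37 chromosome 5 from 90664448 to 90679134 on the minus strand. It overlaps the antisense gene ARRDC3-AS1, and reads of the pair cannot be told apart unless counting used strand, which is not given in the sources used here. DMSO libraries had 3.57, 4.76 and 6.11 RPKM and the 30 min merbarone libraries 3.61, 5.05 and 5.41 RPKM. The groups overlapped and their means, 4.81 ± 1.27 and 4.69 ± 0.954 RPKM (SD, n = 3), differed by -0.02 ± 0.19 on the log2 scale (SE, adjusted p = 1.00 by limma). With the replicate block the 95% interval of this difference was -0.15 to 0.10, against -0.49 to 0.44 without it. Untreated libraries had 4.07 and 3.16 RPKM and the 2 h merbarone libraries 4.77 and 3.95 RPKM. The lower treated library fell between the controls, and the treated library was higher in 2 of 2 same-numbered pairs, by ratios of 1.17 and 1.25. The means were 3.62 ± 0.640 and 4.36 ± 0.576 RPKM (SD, n = 2), and the log2 difference of 0.22 ± 0.12 (SE, 95% interval -0.05 to 0.48) had an adjusted p of 0.237 by limma. With the replicate block its interval was 0.05 to 0.39 and its adjusted p 0.0388 by limma, where 2129 of 6620 genes passed. Without untreated replicate 1 the difference was 0.36 with an adjusted p of 0.00599, and ARRDC3 then passed the threshold of 0.05, as did 2464 of 6624 genes (37.2%). Without untreated replicate 2 it was 0.077 (adjusted p = 0.627) and without merbarone replicate 1 it was 0.11 (adjusted p = 0.839), so the size depended on which library was left out. Of the 13 alternative fits, 2 put ARRDC3 past the threshold, and its sign was positive in all 13.

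ARRDC1, which recruits TSG101 to the plasma membrane and drives the budding of small vesicles, lies on GRCh37 chromosome 9 from 140500137 to 140509812 on the plus strand. It overlaps 2 annotated genes, 1 of them in the tables, so its reads are uncertain to that extent. Its values were 2.78, 3.42 and 2.44 RPKM in DMSO and 2.63, 3.08 and 2.51 RPKM after 30 min of merbarone. In the 2 h experiment it had 3.56 and 4.15 RPKM untreated and 4.07 and 4.02 RPKM with merbarone. Groups overlapped at both times. The log2 differences were -0.05 ± 0.11 (95% interval -0.30 to 0.21) at 30 min and 0.06 ± 0.09 (-0.15 to 0.26) at 2 h, with adjusted p of 1.00 and 0.695 by limma. With the replicate block the 95% interval at 30 min was -0.14 to 0.05.

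ARRDC2, on GRCh37 chromosome 19 from 18111941 to 18124911 on the plus strand, was counted with 173 to 348 reads per library and overlaps 1 annotated gene, ENSG00000279172. Its values were 0.634, 0.713 and 0.635 RPKM in DMSO and 0.630, 0.716 and 0.614 RPKM after 30 min of merbarone, with the groups interleaved. At 2 h it had 1.04 and 1.11 RPKM in untreated cells against 1.18 and 1.30 RPKM with merbarone. Both treated libraries lay above both controls, and the means were 1.08 ± 0.0563 and 1.24 ± 0.0837 RPKM (SD, n = 2), a ratio of 1.15. The log2 difference of 0.11 ± 0.07 (SE, 95% interval -0.04 to 0.26) had an adjusted p of 0.282 by limma. In voom the difference was 0.21 (-0.13 to 0.54, adjusted p = 0.414).

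Counted over the family, 0 of the 3 members tested at 30 min (TXNIP, ARRDC1 and ARRDC3) passed the threshold in limma, and 0 had an unadjusted p under 0.05. Over all genes 1 of 6500 passed (0.0154%), or 8 (0.123%) with the replicate block, and 24 had an unadjusted p under 0.05. In voom, which tested all 5 members, 0 passed, against 1 of 14012 genes (0.00714%). At 2 h 0 of the 4 tested members (ARRDC2 added) passed, while 866 of 6620 genes (13.1%) passed. Of these 4 members 0 had an unadjusted p under 0.05, against 2070 of the 6620 genes. With the replicate block ARRDC3 passed at 2 h (adjusted p = 0.0388 by limma) and the other tested members did not, while 2129 of 6620 genes passed. In voom 0 of 5 passed, against 1882 of 13440 genes (14%). Treated and control libraries did not overlap at 2 h for 2 of 5 members, ARRDC2 (higher) and ARRDC4 (lower), against 61.5% of the genes tested (22.5% higher and 39% lower). At 30 min 0 of 5 did, against 2.28%.

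**Figure D2:**
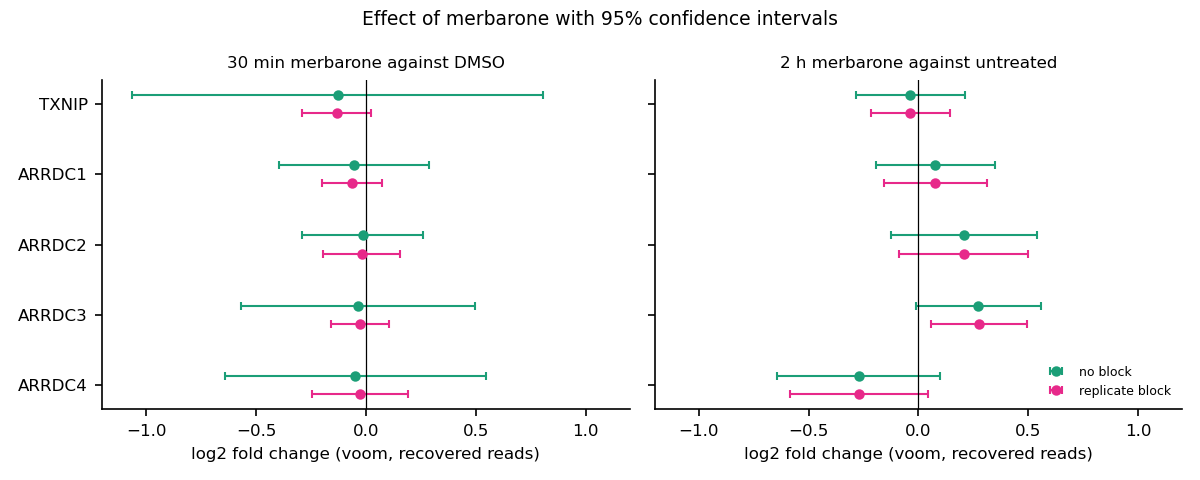
Log2 fold change of each alpha-arrestin after merbarone, from limma voom on the recovered reads, with 95% confidence intervals, at 30 min (left, 3 against 3 libraries) and 2 h (right, 2 against 2); green is the fit without and pink with the replicate number as a block. Intervals without the block include 0 for all 5 genes at both times, and the widest is that of TXNIP at 30 min (-1.06 to 0.81); with the block, the interval of ARRDC3 at 2 h (0.056 to 0.49) lies above 0.

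The difference between the effects, 2 h minus 30 min, was fitted over all 10 libraries, and in it time, solvent and experiment cannot be told apart. For TXNIP it was 0.10 ± 0.54 (95% interval -1.12 to 1.31, adjusted p = 0.956 by limma), for ARRDC1 0.11 (adjusted p = 0.795) and for ARRDC3 0.24 ± 0.28 (adjusted p = 0.730). None of these 3 passed the threshold, against 107 of 6558 genes (1.63%), and 0 of 5 passed in voom, against 66 of 13900 genes (0.475%). Voom gave 0.22 for ARRDC2 (adjusted p = 0.708) and -0.22 for ARRDC4 (adjusted p = 0.878). With the replicate block in limma, the difference was 0.10 ± 0.17 for TXNIP (SE, adjusted p = 0.728). It was 0.11 ± 0.08 for ARRDC1 (SE, adjusted p = 0.374). For ARRDC3 it was 0.24 ± 0.08 (SE, 95% interval 0.05 to 0.43, adjusted p = 0.0753). None of the 3 passed with the block, while 1255 of 6558 genes did.

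The experiments stood apart for 4 of the 5 members. All 4 libraries of the 2 h experiment lay above all 6 of the 30 min experiment for TXNIP, ARRDC1, ARRDC2 and ARRDC4, while ARRDC3 overlapped. Among genes tested over the 10 libraries, 24.7% lay wholly higher in the 2 h experiment and 15.7% wholly lower. The untreated mean was 1.91 times the DMSO mean for TXNIP, 2.21 times for ARRDC4, 1.63 times for ARRDC2 and 1.34 times for ARRDC1. For ARRDC3 it was 0.752 times. Solvent, experiment and library depth cannot be told apart in these control ratios, which are given as a description.

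Replicate spread was wide for TXNIP and for ARRDC3. The pooled SD of TXNIP on the log2(RPKM + 1) scale was 0.61 at 30 min, larger than that of 99.6% of the 6500 genes tested (median 0.0874), and 0.22 at 2 h, larger than that of 97.4% of 6620 (median 0.0779). ARRDC3 had 0.29 and 0.18, larger than 94.6% and 93.1% of genes. ARRDC1 was closer to the median, at 0.15 and 0.089. In the 30 min experiment replicate 1 stood below the others. TXNIP averaged 23.3 RPKM in the 2 replicate 1 libraries and 49.3 RPKM in the other 4, a ratio of 0.474, a log2 difference of -1.04, and 0.0462% of genes had a lower one. For ARRDC3 the averages were 3.59 and 5.33 RPKM, a ratio of 0.673, with 2.77% of genes lower. ARRDC4 had a ratio of 0.645, but at its low level the difference on the log2(RPKM + 1) scale was -0.057, and 42.8% of genes had a lower one. In all 3 genes both replicate 1 libraries lay below the other 4, as for 33.5% of all genes tested. ARRDC1 and ARRDC2 did not show this, with ratios of 0.945 and 0.944.

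The thioredoxin reductase TXNRD1 stood in the opposite order in the same libraries, at 7.84 and 7.30 RPKM in the replicate 1 libraries and 4.39 to 4.79 RPKM in the other 4. Replicate 1 also stood apart over all genes: its chi-square statistic against replicates 2 and 3 of its group was 53.0 to 63.3 per degree of freedom, against 15.8 to 22.5 between replicates 2 and 3. Without both replicate 1 libraries, TXNIP at 30 min differed by -0.21 ± 0.09 (95% interval -0.44 to 0.02), ARRDC1 by -0.04 and ARRDC3 by -0.04, all with an adjusted p of 1.00 by limma, where 1 of 6517 genes passed (0.0153%). This left 2 against 2 libraries, and TXNIP was lower after merbarone in both remaining pairs, by ratios of 0.786 and 0.946.

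**Figure D3:**
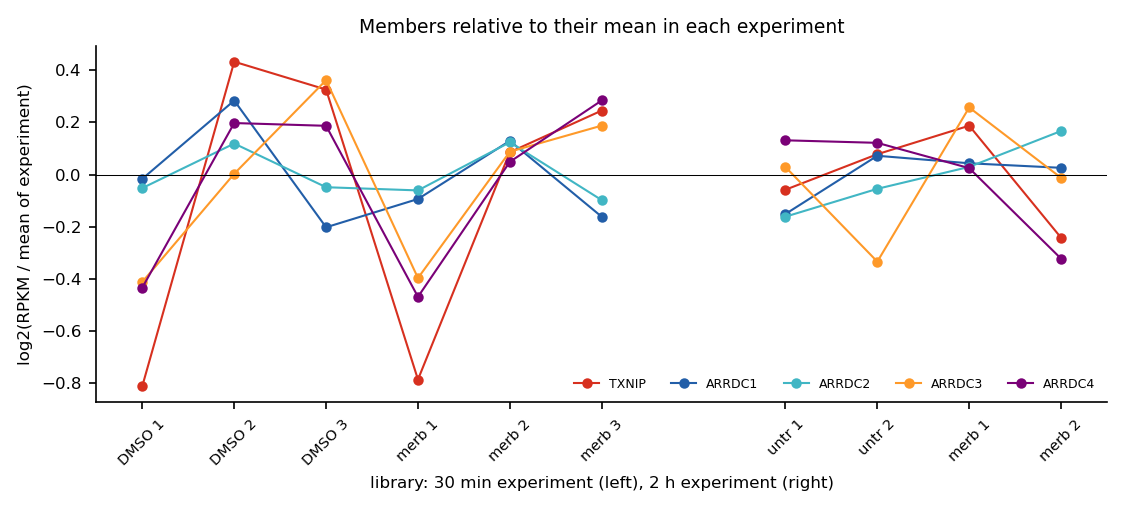
Log2 ratio of RPKM to the gene's mean in its experiment, for each of the 10 libraries (6 of the 30 min experiment on the left, 4 of the 2 h experiment on the right; untr is untreated, merb is merbarone, digits are replicate numbers). TXNIP, ARRDC3 and ARRDC4 dip together in both replicate 1 libraries of the 30 min experiment, whereas ARRDC1 and ARRDC2 stay closer to 0 there.

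Across libraries, TXNIP and ARRDC4 followed each other. After each experiment's mean was taken out, Pearson's r of log2(RPKM + 1) was 0.811 over the 10 libraries, and 94.8% of the genes ranked were less like TXNIP than ARRDC4 was. TXNIP and ARRDC3 had r = 0.776, and ARRDC3 and ARRDC4 had r = 0.517. Within the 6 libraries of the 30 min experiment these 3 values were 0.974, 0.900 and 0.911. There Spearman's rho for TXNIP and ARRDC4 was 0.771, and the 2 replicate 1 libraries, in which both genes were low, are among those 6 points. ARRDC1 and ARRDC2 formed another pair, with r = 0.667 over 10 libraries and 0.902 over 6, while TXNIP and ARRDC1 had r = 0.224. Libraries share an experiment and replicate numbers, so the values are descriptions, and the pairs were picked out after their values were seen.

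By the same measure, the 3 genes most like TXNIP among 6557 ranked were PML (r = 0.982), HIP1R (0.967) and HBP1 (0.961), over 10 libraries. Those most like ARRDC1 were CSNK1E (0.958), STK19 (0.950) and EHD2 (0.948). For ARRDC3 they were KLHDC2 (0.956), SIAE (0.956) and AZI2 (0.952). ARRDC2 and ARRDC4 did not reach a mean of 1 RPKM over the 10 libraries, and the genes most like them are not named.

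Genes that work with the alpha-arrestins were taken from lists of the thioredoxin system, glucose uptake and glycolysis, the MondoA and ChREBP factors, NEDD4-family ligases, other arrestin-fold genes, and cargo and partners. At 30 min 0 genes of any list passed in limma, and 0 had an unadjusted p under 0.05, against 24 of 6500 genes tested. Voom likewise called 0. At 2 h the thioredoxin system, the redox pathway whose central protein TXNIP binds, held the most calls: of 12 genes 10 were tested, 3 fell and 0 rose, while 7.1% of all genes tested fell and 5.98% rose. Its median log2 difference was -0.21, against -0.05 over all genes tested. Voom tested all 12 and called 3 lower, against 815 of 13440 genes called lower. The lists were chosen with earlier results of these data known, so the counts set against all genes are descriptions.

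TXN encodes thioredoxin itself. It was at 7.02 and 7.23 RPKM in the untreated libraries and 4.63 and 4.64 RPKM after 2 h of merbarone. The groups were well apart, and the treated level was near that of all 6 libraries of the 30 min experiment, which had 3.87 to 4.55 RPKM. TXN fell by 0.53 ± 0.09 on the log2 scale (SE, n = 2 against 2, adjusted p = 0.00578 by limma), and stayed past the threshold without any 1 library.

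TXNRD1, the reductase that recharges thioredoxin, was at 6.29 and 5.91 RPKM untreated and 4.25 and 4.36 RPKM with merbarone, so both treated libraries were lower. It fell by 0.42 ± 0.09 (SE, n = 2 against 2, adjusted p = 0.0156 by limma). The call was lost without merbarone replicate 1 (adjusted p = 0.158) or replicate 2 (0.100). PRDX1, a peroxiredoxin that thioredoxin reduces, was at 26.2 and 26.1 RPKM untreated and 15.9 and 18.1 RPKM with merbarone, again without overlap. It fell by 0.59 ± 0.11 on the log2 scale (SE, adjusted p = 0.00978 by limma), and the call was lost without merbarone replicate 1 (adjusted p = 0.132). These are differences against untreated libraries of the same experiment, in which TXNIP itself had a ratio of 0.984.

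**Figure D4:**
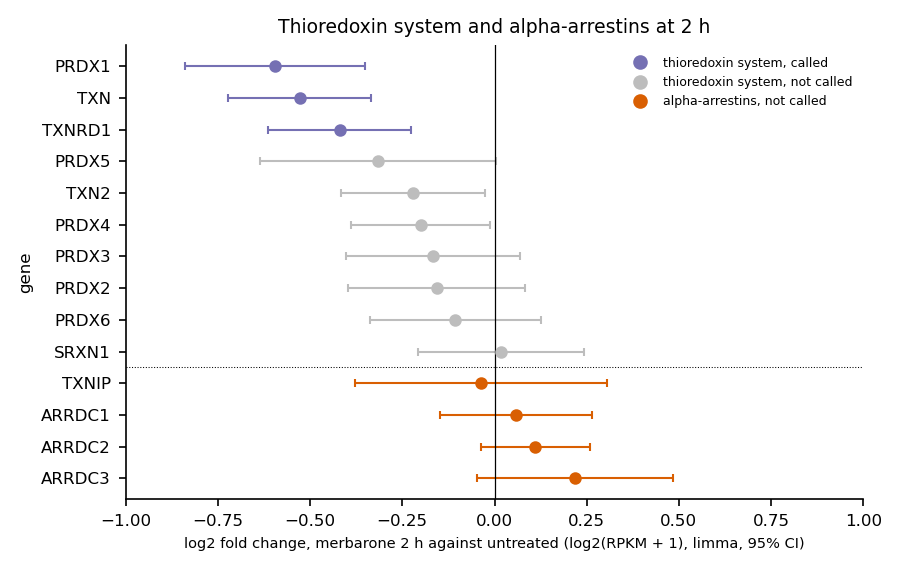
Log2 fold change after 2 h of merbarone against untreated (limma on log2(RPKM + 1), 2 against 2 libraries) with 95% confidence intervals, for the 10 tested thioredoxin-system genes (above the dotted line) and the 4 tested alpha-arrestins (below it). PRDX1, TXN and TXNRD1, in purple, passed the adjusted threshold on the lower side, and the intervals of all 4 alpha-arrestins include 0.

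In glucose uptake and glycolysis 16 of 21 genes were tested at 2 h and 0 passed in either direction, with a median of 0.02. Of these, 2 had an unadjusted p under 0.05, against 2070 of 6620 genes tested. Voom, which tested all 21, called 1 higher, PFKFB3, named after its value was seen. Over all genes voom called 1067 of 13440 higher. SLC2A1, the glucose transporter that TXNIP draws into the cell, was at 19.6 and 22.4 RPKM untreated and 25.6 and 25.2 RPKM with merbarone. Both treated libraries were higher, but the log2 difference of 0.27 ± 0.11 (SE) had an adjusted p of 0.136 by limma. Without untreated replicate 2 it was 0.36 with an adjusted p of 0.0173, and without untreated replicate 1 it was 0.17 with an adjusted p of 0.184. SLC2A1 passed the threshold in 4 of 14 alternative fits.

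Of the 3 MondoA and ChREBP factors only MLX was tested on RPKM at 2 h, with a difference of -0.10 (adjusted p = 0.499 by limma). Voom tested 2 of the 3 and called 0. MLX was at 10.8 ± 0.0827 RPKM untreated and 9.98 ± 0.628 RPKM with merbarone (SD, n = 2). MLXIP lay under the filter, at 0.672 ± 0.00867 and 0.656 ± 0.0260 RPKM, with 935 to 1065 reads per library. Among 9 NEDD4-family ligases 1 was tested, SMURF2, and it did not pass (difference -0.05). Voom tested 8 and called 1 higher, SMURF1, named after its value was seen, against 1067 of 13440 genes called higher. ITCH, a ligase that ubiquitinates TXNIP, had 0.416 ± 0.0309 and 0.507 ± 0.00962 RPKM, and NEDD4 had 0.246 ± 0.0446 and 0.251 ± 0.00180 RPKM (SD, n = 2).

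Among 8 other arrestin-fold genes 4 were tested at 2 h and 0 passed, in limma or in voom. In limma 0 of them had an unadjusted p under 0.05, against 2070 of 6620 genes. ARRB2, a beta-arrestin of receptor desensitisation, differed by -0.11 (adjusted p = 0.340 by limma), and ARRB1 stayed under the filter. In the list of cargo and partners 4 of 5 genes were tested, 1 rose and 0 fell. That gene was ITGB4, an integrin subunit reported as ARRDC3 cargo, at 0.863 and 1.07 RPKM untreated and 1.37 and 1.33 RPKM with merbarone. It rose by 0.26 ± 0.07 on the log2 scale (SE, n = 2 against 2, adjusted p = 0.0470 by limma). The call was lost without merbarone replicate 1 (adjusted p = 0.269) or replicate 2 (0.183), and it was kept in 6 of 13 alternative fits.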

How the data were processed

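The authors deposited 1 table of RPKM per library, per the file headers; the submitters' processing notes name Bowtie 1.2.0, edgeR, DESeq2, deepTools 2.4.1 and hg19 (GRCh37), while the counter, annotation and strand setting are not given in the sources used here. A stranded mRNA kit was used on 150 ng of RNA per library, per the labels' protocols. The RPKM values were whole multiples of 1 read for 100% of 17680 genes (tolerance 0.001 read), which gave reads and gene lengths. Lengths lay within 1% of the GRCh37 gene span (GENCODE 44, lifted) for 74.9% of 17234 genes.

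Tests used limma 3.58.1 (R 4.3.3) on log2(RPKM + 1), a scale that understates changes of low genes. Genes averaging 1 RPKM or more were tested, p-values were two-sided and Benjamini-Hochberg adjusted over all genes tested, and the threshold was 0.05. Limma voom on recovered reads (mean of at least 10) was an alternative. Further alternatives were a pseudocount of 0.1, other filters, scalings, a fit of all 10 libraries, the replicate block and leaving out libraries. Adding the block to voom and leaving out both replicate 1 libraries of the 30 min experiment were chosen after seeing the data. Scripts were tested on simulated data.

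The labels number the replicates but do not say that they were separate cultures, so p-values measure only the spread between these libraries. At 30 min, same-numbered libraries deviated together (r = 0.925, 0.646 and 0.605), and the numbers were taken to pair them. At 2 h there were only 2 pairs (r = 0.30), and the block is reported with the alternatives. No replicate pair held identical values. Named are the 5 members, list genes called in either experiment, TXN, TXNRD1, SLC2A1, MLXIP, MLX, ITCH, NEDD4, ARRB1 and ARRB2, and the 3 genes most like each ranked member. Members and lists were chosen with earlier results of these data known. Promoters came from RefSeq (GRCh38.p14) and matched all 5 symbols.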

Additional observations from a re-analysis of the deposited data

Results flagged for a closer look

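TXN, which encodes thioredoxin, was picked out because its response differed between the experiments by a test of that difference. The 2 h effect minus the 30 min effect was -0.52 ± 0.10 on the log2(RPKM + 1) scale (SE, adjusted p = 0.0445 by limma over 10 libraries). TXN differed by -0.01 at 30 min and by -0.53 at 2 h. The difference passed the threshold in 6 of 19 alternative fits, with adjusted p from 0.00214 to 0.192. When 1 library at a time was left out it passed in 1 of 10 fits, that without DMSO replicate 1 (adjusted p = 0.0472). Untreated libraries had 7.12 ± 0.152 RPKM (SD, n = 2) and DMSO libraries 4.19 ± 0.288 RPKM (SD, n = 3), so time, solvent and experiment cannot be told apart.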

How the results depend on the processing

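No member passed the threshold at 30 min, or in the difference between effects, under any alternative run. At 2 h ARRDC3 passed with the replicate block (0.22, adjusted p = 0.0388), but not with voom and the block (adjusted p = 0.0537); the block changed no other member's call. SLC2A1 at 2 h passed with the replicate block (adjusted p = 0.0396), with voom and the block (0.0104) and after quantile normalization (0.0357). The block raised the glycolysis calls from 0 to 2 of 16 higher (SLC2A1 and PFKP). It raised the thioredoxin-system calls from 3 to 6 of 10 lower. Over all 6620 genes the block raised the calls from 396 to 813 higher and from 470 to 1316 lower. PFKP is named after its value was seen. The count of genes past the threshold at 30 min was 1, and 2 with all 10 libraries in 1 fit, a filter of 5 RPKM, and with either median scaling or quantile normalization. It was 8 with the replicate block, 12 with voom and the block, and 0 to 2 leaving out 1 library. At 2 h the count was 866 (45.7% higher), 397 with a filter of 5 RPKM, 80 with no filter, 1882 in voom (56.7% higher), 2129 with the replicate block, 3406 with voom and the block, and 328 to 2464 leaving out 1 library. The count for the difference was 107, and 36, 319, 66, 1255 and 2044 under those 5 settings, and 38 to 86 leaving out 1 library. Some signs changed, among members and for the list gene TXN. TXNIP at 2 h was 0.0051 with quantile normalization, and TXN at 30 min was 0.0034 after median scaling and 0.0015 after quantile normalization. Leaving out 1 library gave TXNIP differences of -0.52 to 0.18 at 30 min, -0.25 to 0.18 at 2 h and -0.21 to 0.48 for the difference between effects. These fits were made without the block, and each leaves 1 library without its same-numbered partner. ARRDC1 ranged from -0.13 to 0.049 at 30 min and -0.030 to 0.15 at 2 h, ARRDC3 from -0.18 to 0.13 at 30 min and 0.077 to 0.36 at 2 h, and TXN from -0.060 to 0.035 at 30 min. The fall of TXN at 2 h was kept in 13 of 14 alternatives, that of PRDX1 in 12 and that of TXNRD1 in 10, and the rise of ITGB4 in 6 of 13; all 4 calls were lost with no filter. ITGB4 was also lost with all 10 libraries in 1 fit, eBayes without trend, a pseudocount of 0.1 and quantile normalization. The cause was not tested. Reads of ARRDC4 and ARRDC2, at most 256 and 348 in a library, limit what could be seen of them.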
